A study of Arabidopsis thaliana with 12 samples.

Results

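In wild-type Arabidopsis thaliana seedlings under chilling, 1339 splicing events in 1140 genes were listed in the authors' deposited table, and every row of that table was taken as a member. They are 1339 of the 1911 distinct events, and 1140 of the 1502 genes, in the 3 event tables deposited for the study. Beside each event stand 2 values, headed adjusted P value and FDR. Taking the FDR as the Benjamini-Hochberg adjustment of the value beside it, the number of events tested was recovered as 9710, so the listed events are 13.8% of those tested. All were listed at a false discovery rate (FDR, the share of false calls accepted among those listed) under 0.05.

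The study sequenced total RNA of whole 12-day-old seedlings of 3 genotypes, the wild type Col-0 and the mutants smeb-1 and smeb-2, which carry lesions in SmEb (AT2G18740), a gene for a core protein of the spliceosome. The groups used here are Col-0 4C (wild type, 24 h at 4 °C) and Col-0 22C (wild type, kept at 22 °C), with 2 replicates each, and the labels name no introduced allele and no treatment of either group other than temperature. The labels describe the Col-0 22C seedlings as 24 h at 22 °C in one place and as 0 h at 4 °C in another, and they do not say whether replicates were grown separately. The table is titled for wild type under chilling without naming the group it was set against, and it was read as Col-0 4C against Col-0 22C. Beside the gene, the table gives each event's position, kind and these 2 values. It has no direction, size or value per replicate, so an event is called listed and never higher or lower, and depth is unknown. Shares are given with Wilson 95% intervals, which cover counting error only and not the spread between replicates.

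Introns are removed from a transcript by the spliceosome, which recognises a donor site at the intron's 5′ end, nearly always GT, and an acceptor site at its 3′ end, AG. A transcript can differ by keeping an intron (retention), by leaving out an exon (a cassette exon), or by shifting 1 end of an exon to another acceptor or donor (alternative 3′ or 5′ site). An included stretch that brings a stop codon into the reading frame can make the transcript a target of nonsense-mediated decay, a route by which many plant splicing factor genes are known to tune their own RNA.

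Some features of the events can be seen in sequence, all from the TAIR10.1 assembly and printed 5′ to 3′ on the gene's strand. Cassette exons often held a stop codon in the frame carried in from the exon before. The exons listed for SR45a (an SR-like splicing factor), SCL30A (an SR splicing factor), PRR7 (a pseudo-response regulator of the circadian clock) and ABF2 (a bZIP factor that binds abscisic acid response elements) are shown with the first in-frame stop in capitals. None of these exons is annotated, and each lies inside an annotated intron between coding exons. They lie on the minus strand, at chr1:2258747-2258845 for SR45a, chr3:4430483-4430643 for SCL30A, chr5:640085-640202 for PRR7 and chr1:17165935-17166069 for ABF2.
SR45a: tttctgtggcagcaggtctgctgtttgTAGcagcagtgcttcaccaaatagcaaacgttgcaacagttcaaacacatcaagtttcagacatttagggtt
SCL30A: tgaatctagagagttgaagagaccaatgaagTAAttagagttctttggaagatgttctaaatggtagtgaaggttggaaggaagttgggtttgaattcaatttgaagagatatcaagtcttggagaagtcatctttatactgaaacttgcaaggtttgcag
PRR7: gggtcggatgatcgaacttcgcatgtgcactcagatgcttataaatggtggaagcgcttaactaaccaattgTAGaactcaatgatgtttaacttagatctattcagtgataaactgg
ABF2: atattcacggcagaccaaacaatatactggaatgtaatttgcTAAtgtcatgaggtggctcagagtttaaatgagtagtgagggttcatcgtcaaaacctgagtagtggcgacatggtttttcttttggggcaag

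Some retained introns, in contrast, can be read through. They lie between coding exons, hold no in-frame stop and have a length that is a multiple of 3. An annotated exon of the gene spans each intron shown here, so the annotation also holds these stretches as exon sequence. Which form is the usual one is not given by the authors. The introns of GRP7 (a glycine-rich RNA-binding protein of the clock and cold response), COR15A (a chloroplast protein that protects membranes during freezing) and FLM (also MAF1, a MADS-box repressor of flowering) are shown with the donor GT and acceptor AG in capitals. The positions are chr2:9265665-9265715 on the minus strand for GRP7, chr2:17711309-17711377 on the minus strand for COR15A and chr1:28958664-28958744 on the plus strand for FLM.
GRP7: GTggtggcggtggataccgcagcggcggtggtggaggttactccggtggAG
COR15A: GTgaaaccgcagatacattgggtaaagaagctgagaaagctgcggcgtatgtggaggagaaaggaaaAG
FLM: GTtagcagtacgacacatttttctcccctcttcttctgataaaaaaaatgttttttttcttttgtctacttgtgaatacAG

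The shortest shifts of an exon end were of 5 nt, and they are shown because that distance was the most frequent single one among alternative 3′ sites. The 5 events with the lowest FDR among those in coding sequence of genes with a symbol are shown, with both acceptors in capitals. Their genes are GGH2 (a gamma-glutamyl hydrolase, which shortens the glutamate tail of folates), DFD (a synthase that lengthens that tail), SBE2.2 (a starch branching enzyme), ALG12 (a sugar transferase of protein N-glycosylation) and SUV2 (a DNA damage response protein). The windows are chr1:29594710-29594734, chr3:20637555-20637579, chr5:932203-932227 and chr1:406395-406419 on the plus strand and chr5:18497995-18498019 on the minus strand.
GGH2: tggccttgtaaacAGaacAGagaca
DFD: ggttccacattaaAGcgcAGgagaa
SBE2.2: gatccatgtctgtAGggaAGatctt
ALG12: tggaataatccttAGcacAGgtctt
SUV2: ctatgtcttctgaAGatcAGctatg

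Of the 1339 events, 388 (29.0%, interval 26.6 to 31.5%) were alternative 3′ sites. Retained introns numbered 286 (21.4%), cassette exons 284 (21.2%) and alternative 5′ sites 266 (19.9%). The order of these 3 kinds is not firm: with only events inside the listed gene and not opposite in strand, retained introns were 19.4%, cassette exons 22.0% and alternative 5′ sites 20.2%, and without genes that overlap another, they were 20.1, 23.4 and 18.6%. The rarer kinds were 67 alternative starts, 28 runs of several cassette exons, 17 alternative ends and 3 pairs of mutually exclusive exons. The authors' deposited table gave an FDR of 0 for 247 events, and among these the order of kinds was another: 87 were retained introns (30.4% of that kind), 51 cassette exons (18.0%), 48 alternative 3′ sites (12.4%) and 39 alternative 5′ sites (14.7%). In the authors' deposited table, an FDR under 0.01 was listed for 81.7% of cassette exons, 71.8% of alternative 5′ sites, 69.9% of retained introns and 62.6% of alternative 3′ sites. An FDR depends on read number as well as on the size of a difference, and reads per event are not in the table.

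**Figure D1:**
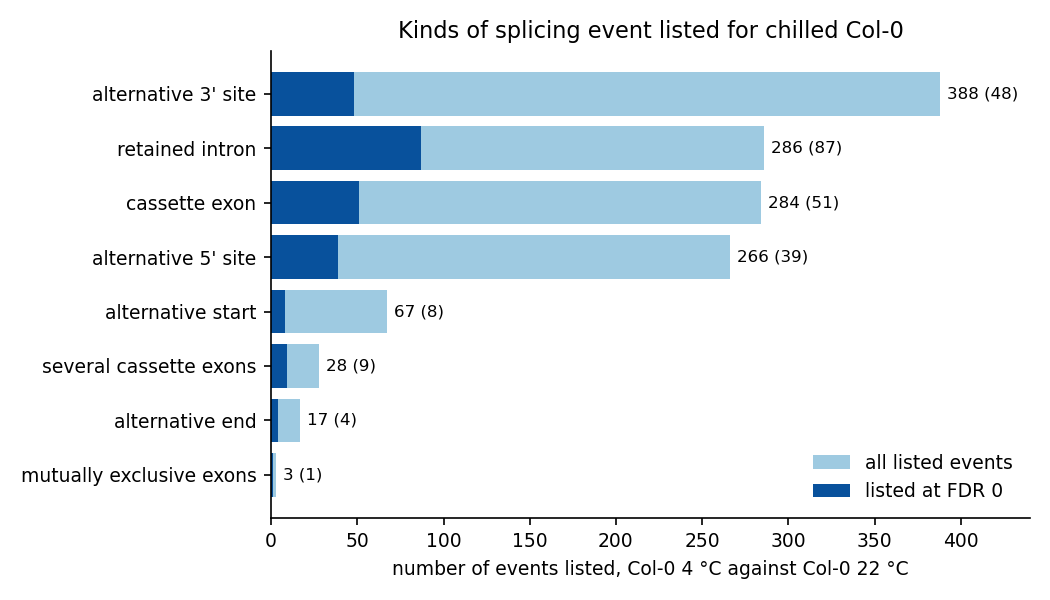
Number of events listed for chilled Col-0 by kind, with all listed events as light bars and those listed at FDR 0 as dark bars; the number at FDR 0 stands in brackets. Alternative 3′ sites are the most frequent kind (388), while retained introns are the most frequent at FDR 0 (87).

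A single event was listed for 990 genes, 2 events for 123 genes, 3 for 16 genes and 4 or more for 11 genes. Listed genes had a median of 7 introns, against 4 in all annotated genes with an intron, and 84.8% of them had more than 1 annotated transcript, against 45.5%. On the 5 chromosomes, 4.40 to 5.15% of the genes with an intron were listed. Of the 287 pairs of events within a gene, 41 overlapped or touched, most often a retained intron with an alternative 5′ site (13 pairs) or 3′ site (11 pairs), so such events read the same stretch and are not separate observations. In GRP7, for instance, an alternative 5′ site with a shift of 24 nt and an alternative 3′ site with a shift of 15 nt adjoin the 2 ends of the retained 51-nt intron printed above.

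Several of the genes with the most events share their place with another gene. Of the 11 genes with 4 or more events, 8 overlap another annotated gene, as do 420 of all 1140 listed genes (36.8%). MAP65-8, a microtubule bundling protein, and the antisense locus AT1G27921 had 7 events each, and reads of the pair cannot be told apart unless strand was used, which is not given in the sources used here. UAP56b, an RNA helicase of mRNA export, had 5 events, of which 3 lay inside its own gene and the others outside it. An alternative 3′ site with a shift of 136 nt was listed inside it (chr5:3568142-3568278) and another with the same shift outside it (chr5:3554101-3554237). The gene of the outside events is uncertain. GRP7 with 5 events and UMAMIT44, an amino acid transporter family member, with 4 overlap no other annotated gene.

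Events lay mostly in coding sequence, with a large share before it. Of 1338 events placed on an annotated transcript, 795 (59.4%, interval 56.8 to 62.0%) lay in coding sequence, 349 (26.1%) in the 5′ UTR, 92 (6.88%) in the 3′ UTR and 57 (4.26%) across a start or stop codon, and 45 (3.36%) belonged to non-coding transcripts. Alternative 3′ sites were in coding sequence in 71.9% of cases, cassette exons in 60.6% and alternative 5′ sites in 59.0%.

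Retained introns were set against 2 backgrounds, the introns that the reference annotation also shows as retained in another transcript (10427) and all annotated introns (136443). Of the 286 listed, 216 match an annotated intron exactly. Among these, 34.7% (interval 28.7 to 41.3%) lay in the 5′ UTR, against 26.3% of introns annotated as retained and 6.41% of all introns. The 3′ UTR held 13.4% of them, against 8.95% and 1.88%, and coding sequence held 49.5%, against 58.8% and 87.9%. First introns made up 37.0%, against 32.3% and 16.9%, and last introns 28.2%, against 28.3% and 15.3%. Since 215 of the 216 are themselves among the introns annotated as retained, a likeness to that background follows from membership and is no result. The contrast with all introns is shared by that background and is no separate result. Of the 286, 276 lie within an annotated exon of the gene.

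**Figure D2:**
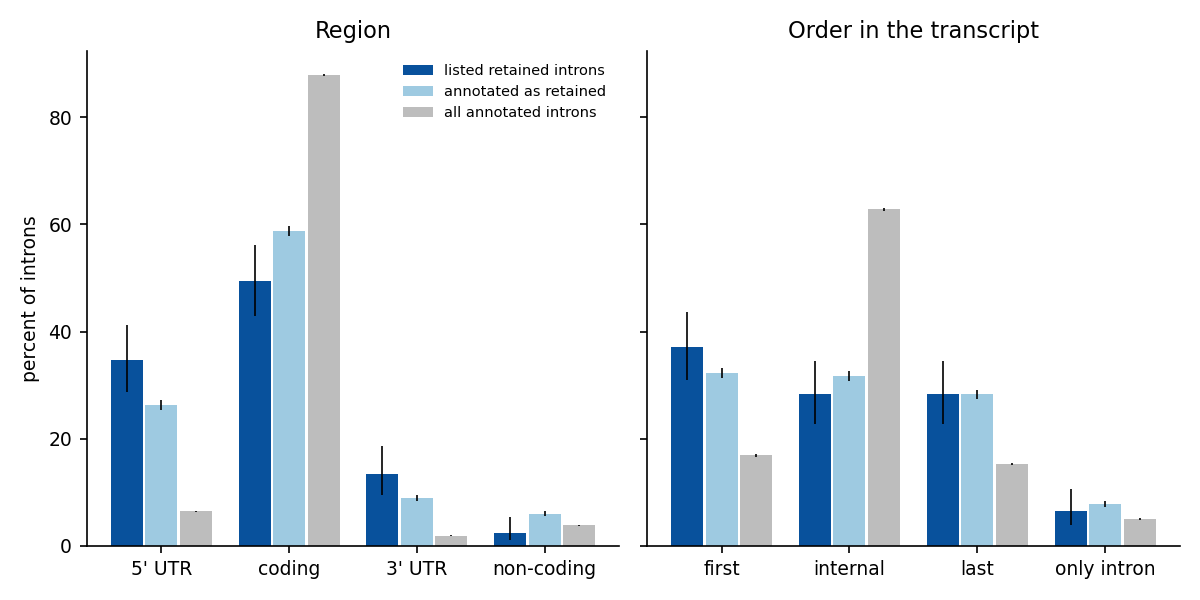
Percent of introns by region (left) and by order in the transcript (right) for the 216 listed retained introns that match an annotated intron, for introns annotated as retained and for all annotated introns, with Wilson 95% intervals as lines. Coding introns are 49.5% of the listed ones, 58.8% of those annotated as retained and 87.9% of all introns. Internal introns are 28.2, 31.6 and 62.8%. Nearly all listed ones are annotated as retained, so the contrast with all introns is shared with that set.

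Named retained introns came from both ends of genes. UBC8, a ubiquitin-conjugating enzyme, had a listed intron of 163 nt as intron 1 of 4, in the 5′ UTR. IPK2a, an inositol polyphosphate kinase, had one of 729 nt, the only intron of the transcript that holds it, also in the 5′ UTR, and a cassette exon of 87 nt lay within it. LNK2 (AT3G54500), a clock coactivator, had 2 retained introns of 136 and 93 nt in the 5′ UTR, and it overlaps another annotated gene. RCA, Rubisco activase, had its last intron (6 of 6, 124 nt) listed in coding sequence with an alternative 5′ site of 11 nt at the same intron, and RCA likewise overlaps another gene.

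Along the gene, the median position of cassette exons was 38.2% of the way from start to end, that of alternative 5′ sites 37.2%, of alternative 3′ sites 43.1% and of retained introns 44.7%, against 49.3% for all annotated introns. Only 3 of 279 cassette exons (1.08%) lay in the last 20% of the gene, where 59 of 277 retained introns (21.3%) lay. Retained introns were spread widest of these kinds, with quartiles at 16.5 and 75.4%. Introns annotated as retained had a like spread, with quartiles at 19.5 and 75.5% and 17.7% in the last 20% of the gene. Position was not measured for annotated internal exons, so cassette exons have no background of their own here.

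Retained introns were of common intron length. The 286 had a median of 101 nt (interval 94 to 107 nt, range 19 to 909 nt), against 113 nt for introns annotated as retained and 102 nt for all introns. In the 5′ UTR, where annotated introns are long, the matched listed introns had a median of 108 nt, against 155 nt for those annotated as retained and 221 nt for all. Introns above 300 nt were 7.87% of the matched ones, against 16.2 and 13.3%. The longest was the 909-nt intron 6 of 8 of U1-70K, the gene for a protein of the U1 particle that binds donor sites, and an alternative 5′ site with a shift of 796 nt was listed in the same intron. The GC content of the matched introns had a median of 34.7%, against 33.7% and 32.8%.

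Cassette exons were short. Their median was 74 nt (interval 67 to 80 nt, range 6 to 417 nt), against 72.5 nt for exons annotated as skipped and 120 nt for all annotated internal exons. At most 30 nt was the length of 24 of 284 (8.45%), against 9.69% and 0.924%, and 13 of these 24 had a length that is a multiple of 3. The shortest, of 6 nt, belonged to AT5G18230, a gene of the NOT2/NOT3/NOT5 family of the mRNA deadenylation complex, and the authors' deposited table has it at FDR 0. SEC, an enzyme that attaches N-acetylglucosamine to proteins, had one of 21 nt, and KAC2, a kinesin-like protein of chloroplast movement, another of 21 nt.

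**Figure D3:**
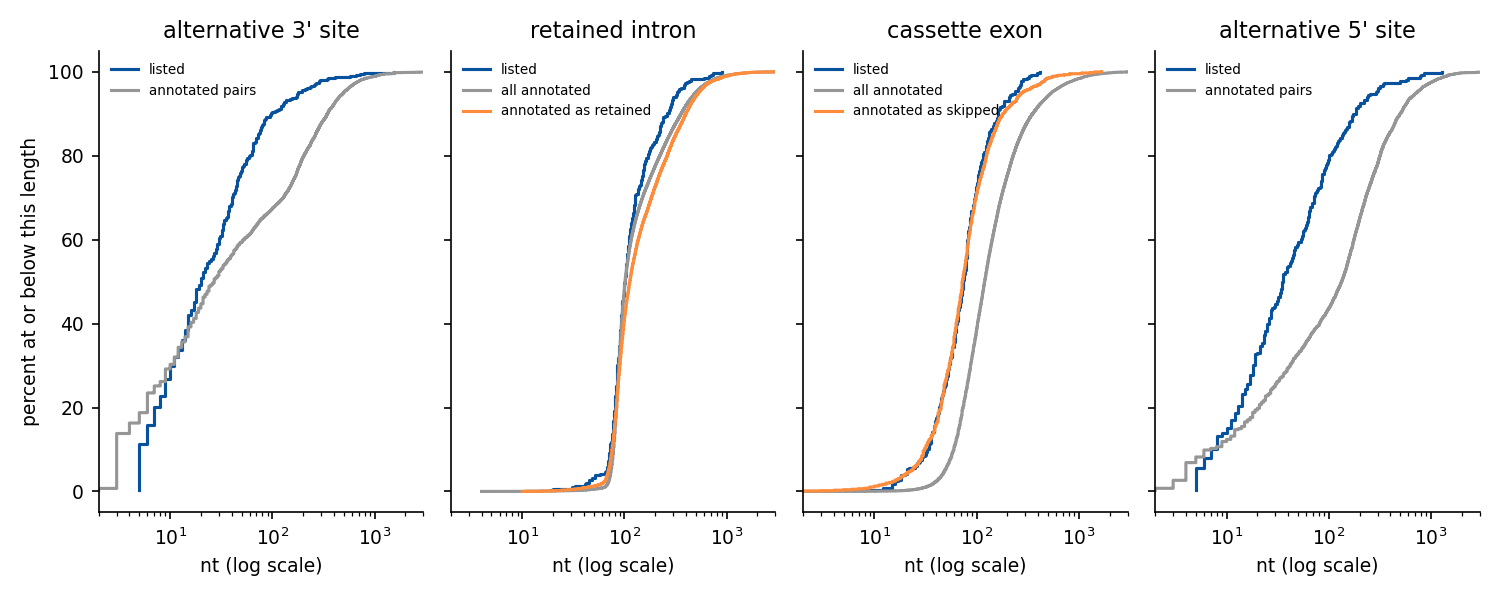
Cumulative percent of events at or below each length (nt, log scale) for the 4 main kinds, with the annotated background in grey and features annotated as retained or skipped in orange. Cassette exons (median 74 nt) follow exons annotated as skipped (72.5 nt), and shifts of alternative 5′ sites have a median of 35.5 nt (60.5 nt where both sites are annotated), against 134 nt for annotated donor pairs.

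The shift between 3′ sites had a median of 20 nt (interval 17 to 25 nt), against 27 nt for annotated pairs of acceptors, and that between 5′ sites a median of 35.5 nt (interval 29 to 45 nt), against 134 nt for annotated pairs of donors. Many listed pairs hold an unannotated site: where both sites are annotated, the median was 23 nt for the 150 alternative 3′ sites (interval 18 to 32 nt) and 60.5 nt for the 110 alternative 5′ sites (interval 39 to 72 nt). A shift below 5 nt was listed for 0 of 388 alternative 3′ sites and 0 of 266 alternative 5′ sites, which allows shares of up to 0.773 and 1.13% (3 counts of the total), while 16.3 and 6.87% of annotated pairs are that close. Shifts of 3 nt, the commonest distance of annotated acceptor pairs (13.1%), were therefore not in the table; whether the authors' procedure had a lower limit is not given in the sources used here. A shift of exactly 5 nt was listed for 44 alternative 3′ sites (11.3%, interval 8.56 to 14.9%), against 2.95% of annotated acceptor pairs of 5 nt or more, and for 15 alternative 5′ sites (5.64%), against 1.44% of donor pairs. At least 29 of the 44 and 12 of the 15 had only 1 annotated site, so these shares compare unlike sets.

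The 5-nt shifts change the frame by their length. Those with AG at both sites, inside the listed gene and in coding sequence of genes with a symbol, numbered 13, including NPQ1, the violaxanthin de-epoxidase of photoprotection, VTE5, a phytol kinase of vitamin E synthesis, and the neighbouring hydrolase genes GGH2 and GGH3. GGH2 and GGH3 both had the shift at intron 3 of 9, and near-identical copies can share reads. Where 1 site of a 5-nt pair was annotated, the other lay in the annotated exon in 14 of 29 cases and in the annotated intron in 15.

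**Figure D4:**
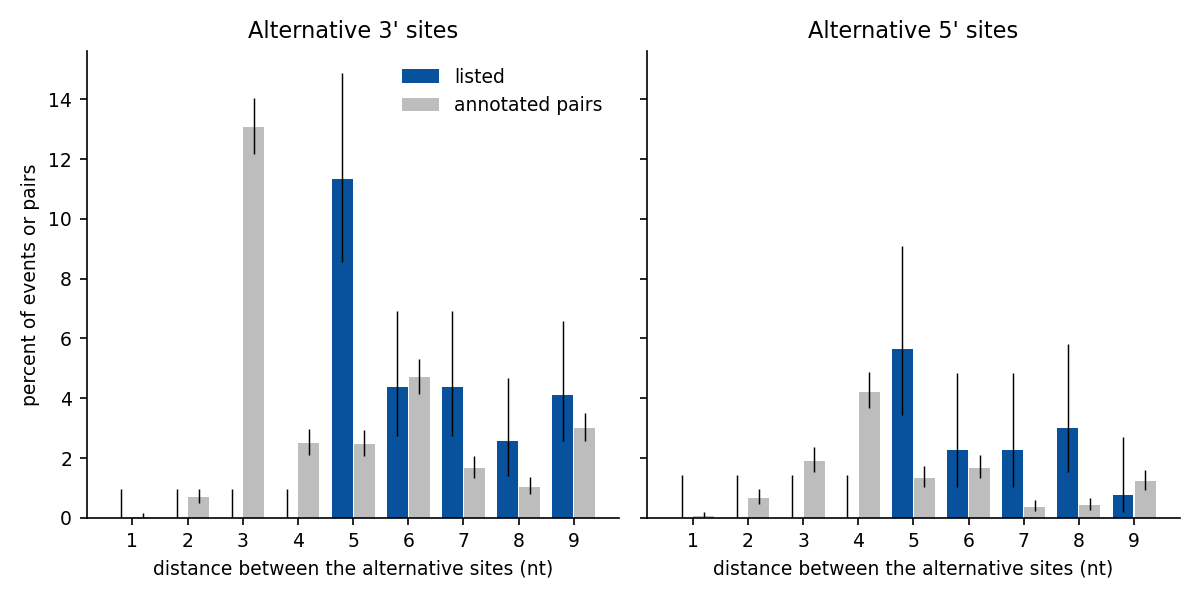
Percent of listed events (dark) and of annotated pairs (grey) at each distance between alternative 3′ sites (left) or 5′ sites (right), in nt, with Wilson 95% intervals. No event is listed below 5 nt, and 11.3% of the alternative 3′ sites and 5.64% of the alternative 5′ sites are at 5 nt.

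Larger shifts were also listed. SR34, an SR splicing factor, had an alternative 3′ site 353 nt away from the other at intron 10 of 12. ATU2AF65A, the large subunit of the factor that reads the acceptor region, had a shift of 173 nt at intron 11 of 12. AGO1, the main slicer of the miRNA pathway, had a shift of 6 nt between annotated acceptors. Among alternative starts, 32 of 67 had a listed stretch of exactly 81 nt, as had 10 of 17 alternative ends, and these kinds were not compared further by length.

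Many listed alternative sites and cassette exons were not fully in the reference annotation, while 216 of 286 retained introns match an annotated intron. Both sites were annotated for 150 of 388 alternative 3′ sites (38.7%) and 110 of 266 alternative 5′ sites (41.4%). Where 1 site was annotated and both read as splice sites, the other lay in the annotated intron for 112 of 203 alternative 3′ sites (55.2%) and 64 of 115 alternative 5′ sites (55.7%). The cassette exon was annotated for 168 of 284 (59.2%), and for 108 of these an annotated transcript also skips it. A further 100 (35.2%) were unannotated stretches inside an annotated intron.

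The sites had the usual letters. Of the 216 matched retained introns, 96.8% began with GT and ended with AG, against 96.9% of introns annotated as retained and 98.3% of all, and 7 (3.24%) began with GC, against 2.15 and 1.10%. AT to AC ends were found in 0 of 216, which allows a share of up to 1.39%, against 0.556 and 0.125%. AG preceded both alternative acceptors in 361 of 388 cases. Of the 70 retained introns that match no annotated intron, 37 have the letters GT and AG at their ends only when read on the other strand, so that their gene is uncertain. In all, 520 events (38.8%) lay in genes that overlap another annotated gene, and 38 events lay outside the gene they were listed for.

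Most lengths were no multiple of 3. In coding sequence, a multiple of 3 was found for 41.9% of cassette exons (interval 34.7 to 49.3%), against 56.7% of coding exons annotated as skipped and 45.0% of all internal coding exons. Annotated exons among them had 47.7% (interval 37.6 to 58.0%) and unannotated ones 35.7% (interval 26.3 to 46.4%). The shares were 34.8% for alternative 3′ sites, against 43.7% of annotated acceptor pairs of 5 nt or more, and 31.8% for alternative 5′ sites, against 41.7% of donor pairs of that distance. These annotated pairs come from all regions, not coding sequence alone. Both their sites are annotated, unlike many of the listed pairs, so the sets are not alike. Coding retained introns had 39.1%, against 40.3% of those annotated as retained and 33.3% of all.

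In-frame stops were frequent in cassette exons. Of 139 cassette exons that lie within an annotated intron between coding exons, 82 (59.0%, interval 50.7 to 66.8%) held a stop in the incoming frame, against 27.8% of annotated skipped exons placed in the same way. The unannotated ones among the 139 had a stop in 56 of 79 cases (70.9%), and the annotated ones in 26 of 60 (43.3%). Exons with a stop included those of HSFA1D, a master heat shock factor, MPK18, a kinase of microtubule function, and the phosphatase subunits FYPP3 and PP2A-3. HSFA1E, a paralog of HSFA1D, had an unannotated exon of 139 nt without a stop within it, but this length is no multiple of 3.

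Of 107 matched coding retained introns, 77 (72.0%) held an in-frame stop, against 74.9% of coding introns annotated as retained and 89.0% of all coding introns. No stop together with a length that is a multiple of 3 was found for 21 (19.6%, interval 13.2 to 28.1%), against 15.8 and 3.41%. Nearly all matched introns are annotated as retained, so the contrasts with all coding introns are shared with that background. Beside the introns of GRP7, COR15A and FLM printed above, the 21 included introns of UBQ10 (polyubiquitin, 228 nt), ARC5 (a dynamin-like protein of chloroplast division, 108 nt), VCS (an mRNA decapping scaffold, 105 nt) and EGY2 (a chloroplast membrane protease, 87 nt). UBQ10 codes for repeated ubiquitin units, and near-identical stretches can share reads, so its intron is less certain. The COR15A intron, intron 3 of 3 with 69 nt, was listed in the authors' deposited table at FDR 0.0261, while those of GRP7, UBQ10 and ARC5 had 0.

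By function, the listed genes were sorted with keywords in their product names, a rule that misplaces some genes: AGO1 fell among transporters, and the abscisic acid receptor PYL8 among disease resistance and receptors. Of 24197 annotated genes with an intron, 1132 (4.68%) were listed. For RNA binding and splicing it was 48 of 397 (12.1%, interval 9.24 to 15.7%), for RNA helicases and decay 11 of 109 (10.1%), for photosynthesis 10 of 69 (14.5%, interval 8.07 to 24.7%) and for phosphatases 29 of 291 (9.97%). Transcription factors with 54 of 1175 (4.60%) and ubiquitin and proteolysis with 63 of 1349 (4.67%) were near the share of all genes. Ribosome and translation had 9 of 251 (3.59%), and disease resistance and receptors 7 of 420 (1.67%, interval 0.810 to 3.40%). No class held 722 of the listed genes. The median number of introns was 5 in RNA binding genes, 3 in photosynthesis genes and 4 in disease resistance genes, and the part of intron number and of expression level in these shares was not tested.

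**Figure D5:**
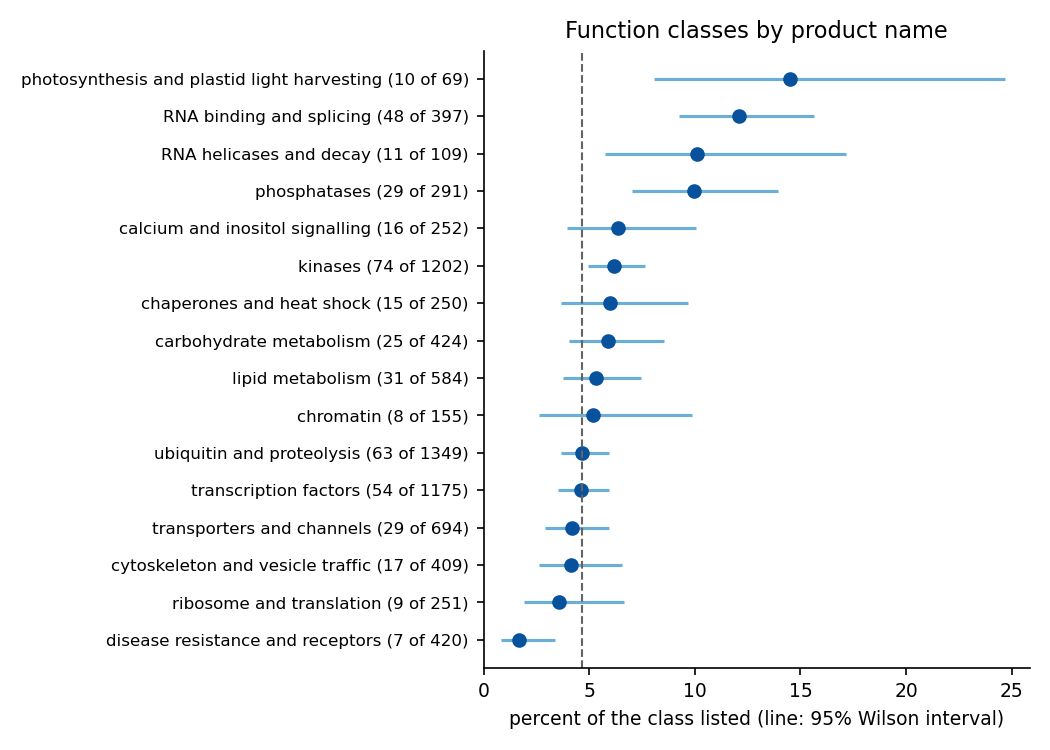
Percent of the genes in each product-name class that were listed (dots, with Wilson 95% intervals as lines); the dashed line marks the 4.68% of all genes with an intron. RNA binding and splicing stands at 12.1% and disease resistance and receptors at 1.67%.

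The 58 events in RNA binding and splicing genes were 17 alternative 3′ sites, 17 cassette exons, 14 retained introns and 3 alternative 5′ sites (5.17%, against 19.9% of all events), with the rest of rarer kinds, and 19 of the 58 (32.8%, interval 22.1 to 45.6%) stood at FDR 0 in the authors' deposited table, against 18.4% of all events. By gene, 15 of the 48 (31.2%) had such an event, against 18.6% of all listed genes. Of 20 SR and SR-like genes, which bind exons and recruit the spliceosome, 9 were listed (against 4.68% of all genes with an intron). They had 11 events, 7 of them cassette exons, against 21.2% of all events. This list too was put together with earlier results of these data known, so its count is a description. The cassette exon of SR34 had 80 nt, that of RS31 393 nt, that of RS41 326 nt, and those of RS40 257 and 67 nt. All 6 that could be placed in frame (in SR34, RS31, RS40, RS41, SCL30A and SR45a) held an in-frame stop (interval 61.0 to 100%). Among all listed cassette exons placed in the same way, 82 of 139 (59.0%) held one, and 6 exons are few. The remaining exon, of 67 nt in RS40, lay in the 5′ UTR. PTB1, a polypyrimidine tract-binding splicing regulator, had an exon of 102 nt with a stop. PRP39, a U1 particle factor, had a run of several cassette exons.

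Photosynthesis genes had 11 events, all in coding sequence, of which 6 were retained introns and 0 cassette exons. Among all listed events, 59.4% of those placed lay in coding sequence, 21.4% were retained introns and 21.2% were cassette exons. With 11 events in 10 genes, the mix of kinds is a description only. LHCB2.1, a light-harvesting chlorophyll protein of photosystem II, had a retained intron of 239 nt, RBCS1A, the Rubisco small subunit, one of 112 nt, and PIFI, a chloroplast electron flow factor, one of 93 nt. TAP38, the phosphatase of the light-harvesting complex, had one of 84 nt, and TAPX, the thylakoid ascorbate peroxidase, an alternative 5′ site with a shift of 19 nt. Of the 10 genes, 5 overlap another annotated gene, against 36.8% of all listed genes.

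Other pathways were followed through short lists of known genes. These lists were put together with earlier results of these data known, so their counts are descriptions, to be read beside the 4.68% of all genes with an intron that were listed. Of 17 clock genes, 16 have an intron and 8 were listed: CCA1, a morning repressor, with an alternative start, PRR5, RVE4 and LNK2 with alternative 3′ sites, PRR9 with an alternative 5′ site, and PRR7, ELF3 and LNK1 with cassette exons. The ELF3 exon, of 38 nt in the evening complex gene, held no stop within it, unlike that of PRR7. Its length is no multiple of 3, so including it shifts the frame after it. Of 15 cold response genes, 12 have an annotated intron and 3 were listed, all with retained introns: COR15A, ERD10 (a dehydrin, 41 nt) and CAMTA3 (a calmodulin-binding activator of cold genes, 76 nt in the 5′ UTR). Of 15 abscisic acid genes, 14 have an intron and 6 were listed. Retained introns were listed in HAB1 (a phosphatase that blocks the pathway, 123 nt with a stop) and PYL8 (80 nt without one, a length that is no multiple of 3). Shifts were listed in the kinases SNRK2.2 (21 nt) and SNRK2.3 (42 nt).

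Of 15 light signalling genes, all with an intron, 6 were listed (against 4.68% of all such genes), among them the photoreceptor PHYA with an alternative start, the ubiquitin ligase COP1 with an alternative 3′ site 409 nt away, and the bHLH factor PIF5 with a retained intron of 79 nt. Of 13 flowering-time RNA-binding and MADS-box genes, all with an intron, 8 were listed (against 4.68%). Beside GRP7 and FLM, MAF2 and MAF3, paralogs of FLM, each had an alternative 3′ site at intron 3, with shifts of 33 and 38 nt. Neither SmEb nor its paralog SmEa (AT4G30330) was listed in Col-0.

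Among metabolic and signalling genes with an event at FDR 0 in the authors' deposited table, AMY3, a chloroplast alpha-amylase, had an alternative 3′ site 7 nt away. F2KP, the enzyme that makes and breaks fructose 2,6-bisphosphate, had one 24 nt away, and CIPK21, a calcium-dependent signalling kinase, an alternative 5′ site 44 nt away. SOS4, a pyridoxal kinase known for salt tolerance, had a shift of 33 nt at intron 1 of 12, a multiple of 3. KAT5, a peroxisomal thiolase of fatty acid oxidation, had a cassette exon of 282 nt in the 5′ UTR.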

How the data were processed

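The submitters' processing notes name Trimmomatic 0.32, TopHat2 2.0.13 and the build TAIR10. For the splicing caller, its filters, strand handling and the merging of replicates, no name or setting is given in the sources used here. The values analysed are a p-value, headed adjusted, and an FDR that the authors deposited beside each event, per the file headers; of 7 tables, 4 were not used here. No column holds values per sample (0 such columns left out), so the tests planned across samples could not be run, no SD can be given and the depth per sample is unknown.

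How the first value was adjusted is not stated; it was treated as the p that enters the Benjamini-Hochberg rule and the FDR as its result. The number of tests was recovered as the number that makes ranks under the Benjamini-Hochberg rule whole within 0.0001. This held for 85.3% of the 1092 events with a p-value above 0. The highest whole rank was 1346, above the 1339 events listed. On simulated data the procedure recovered 3 of 3 tables. Those tables held unadjusted p-values and none of 0, so they test the procedure and not whether the rule holds for the authors' values. Positions are 1-based; 1 base was taken off each end of a retained intron. Region, order and frame follow the RefSeq TAIR10.1 annotation. The transcript used is the first by name that holds the feature or, for alternative sites, uses either site. Where none does, it is the first by name of the gene. The coordinates of the annotation fit TAIR10: 97.2% of events lie inside the listed gene and 1139 of 1140 genes were matched. A cassette exon was tested for a stop in the frame carried in by the spanning intron. Stops were sought only within the retained intron or cassette exon, not after it.

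Named genes are the 6 with the lowest FDR for each main kind and 3 for rarer kinds, up to 4 for each of 16 function classes, those with 4 or more events, the shortest and longest events, and listed members of 6 gene lists; further genes with short exons, open introns, 5-nt shifts or a role in photosynthesis were chosen after their values were seen. The members and lists were chosen with earlier results of these data known. Analyses used Python 3.11.15, pandas 2.3.3, numpy 2.4.6 and SciPy 1.17.1. Alternatives were an FDR under 0.01 or 0.001, events placed inside the listed gene only, no overlapping genes, 1 event per gene, any annotated transcript, and matched introns only.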

Additional observations from a re-analysis of the deposited data

How the results depend on the processing

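Of 97 values recomputed under the alternatives, 79 stayed within their interval or within 1.5 times the count. At an FDR under 0.01, alternative 3′ sites were 25.7% and cassette exons 24.6% of events, and 3.39% of genes with an intron were listed. At an FDR under 0.001, 641 events in 559 genes were left, alternative 3′ sites were 22.8% and cassette exons 27.3%, and 8.56% of RNA binding and splicing genes were listed, against 2.3% of all. Cassette exons thus outnumbered alternative 3′ sites at that limit. Without genes that overlap another, 819 events in 720 genes were left, 63.1% of events were coding, 92.1% of retained introns read GT to AG, 97.0% of alternative 3′ sites had AG at both sites, and 4.25% of genes were listed. With only events inside the listed gene and not opposite in strand, 94.7% of retained introns read GT to AG. With 1 event per gene, AG stood at both sites of 95.2% of alternative 3′ sites. Any annotated transcript made 63.8% of events coding. Fewer events are left by construction under each limit; beyond that the cause was not tested. No paired analysis was possible because the table holds no values per replicate, and leaving out each replicate was not run for the same reason. Depth is unknown, so nothing can be said of events that are not listed.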
